A study of Mus musculus with 4 samples.

Results

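The cytosolic ribosomal protein genes are the 87 of 24532 rows of the gene table whose symbol has the form Rpl or Rps with a number, or is Rplp0, Rplp1, Rplp2, Rpsa, Rpl36al or Rps27rt. Of these, 77 encode a protein of the ribosome's subunits, 31 of the small and 46 of the large subunit, and 10 are paralogs or copies of such a gene. Fau and Rack1 also encode ribosomal components, but their symbols fall outside the rule. The rule reads the symbol alone, and it was set with earlier results of these data known.

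Each cytosolic ribosome holds a single copy of nearly every one of these proteins, so that cells make them in like amounts, and the stalk proteins Rplp1 and Rplp2, present in more than a single copy, are the known exception. Their mRNAs are among the most abundant of any growing cell. Most of them begin with a C followed by a run of pyrimidines, the terminal oligopyrimidine (TOP) motif, through which the mTOR pathway sets how strongly they are translated. The levels below are of mRNA, and the amount of protein was not measured.

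RNA was sequenced from articular cartilage of wild-type C57BL/6 mice in 4 libraries, sham and injured at a young and at an adult age, with 1 library per group, each made from cartilage pooled over mice. With no replicates, no difference between these libraries has a check on its error, and neither a test nor a standard deviation is given. Young mice were 3 weeks old. Adult mice were 12 weeks old by the sample titles and 14 weeks by the age field, and the methods of the study give a younger adult age than either. The injury is named DMM surgery (destabilization of the medial meniscus) in the labels, whereas the methods of the study describe a full-thickness injury of the groove cartilage. Injured cartilage and young sham cartilage were from day 3, and adult sham cartilage was labelled with days 3 to 14.

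Values are in FPKM, a unit of fragments scaled to transcript length and library size, and the depth of the libraries is unknown. Ratios are log2 ratios of FPKM + 1, so that they understate the change of genes of low level, and they are given as deposited (unscaled) and after median-of-ratios scaling, which divides a library by its median ratio to the geometric mean. The scaling factors were 1.10 for young sham, 1.11 for young injured, 0.809 for adult sham and 1.02 for adult injured cartilage. Unscaled, the median of all 18181 genes above 0 in at least 1 library was 0.14 for adult injured against adult sham and −0.15 for adult sham against young sham, and after scaling both were 0.00. All 8 chondrocyte markers were above 0 in every library, with a summed level of 9755 to 14084 FPKM, within which single markers moved in opposite directions with age. Markers of other cells were also present, none of them listed at 0 in any library: the summed level ranged from 424 to 1491 FPKM for 8 skeletal muscle genes, 3031 to 18444 for 8 erythroid genes, 181 to 1773 for 8 macrophage genes, 1187 to 2419 for 8 neutrophil genes, 10.7 to 72.2 for 5 B cell genes and 701 to 5503 for 5 osteoblast genes. The erythroid list left out Hbb-b1 and Hbb-b2, which were added after their values were seen. The beta globin copies changed places in adult sham cartilage, where Hbb-b1 was at 0.244 and Hbb-bs at 2868 FPKM, against 2676 and 83.4 FPKM in adult injured cartilage. With both genes added, the erythroid sum was 24564 FPKM in young sham cartilage and 43480 after injury, and 8363 in adult sham cartilage and 6942 after injury. The adult sham library stood apart from the other 3 in the ribosomal protein genes, as described below, and 3 of the 6 pairs of libraries leave it out.

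The members with the most extreme ratios were Rps27 and Rps27rt, in the comparisons that hold adult injured cartilage. Rps27 lies on chromosome 3 at 90212667 to 90213648, and Rps27rt is a single-exon copy of 374 bases on chromosome 9 at 114982366 to 114982739 (RefSeq, GRCm38.p6, the assembly of mm10). Their coding sequences of 255 bases, stop codon included, did not differ at any base. The start regions are shown because they mark where the shared transcript begins. Each line holds 30 bases before and 15 after the annotated start, 5′ to 3′ on the gene's strand, with the longest run of a C and at least 4 further pyrimidines near the start in capitals, as far as it lies in the window.
Rps27, chr3:90213634-90213678, minus strand: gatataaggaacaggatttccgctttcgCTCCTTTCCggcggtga
Rps27rt, chr9:114982725-114982769, minus strand: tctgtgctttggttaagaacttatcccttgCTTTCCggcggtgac
A run of 38 identical bases began at the first base of Rps27rt and at the second base of Rps27, so that the copies part at the start site and are alike inside the transcript. Reads from inside the transcript therefore cannot be told apart by these bases.

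Further start regions are shown for some of the members that lay furthest from the others in adult sham cartilage, with Rpl22l1, Rps25 and Rpl35 at the low end and Rplp2 and Rpl37 at the high end, and for the abundant Rps12.
Rpl22l1, chr3:28805478-28805522, plus strand: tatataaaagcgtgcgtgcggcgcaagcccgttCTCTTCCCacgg
Rps25, chr9:44407684-44407728, plus strand: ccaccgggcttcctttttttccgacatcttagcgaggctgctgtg
Rpl35, chr2:39005117-39005161, minus strand: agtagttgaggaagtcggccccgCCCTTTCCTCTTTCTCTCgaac
Rplp2, chr7:141447621-141447665, plus strand: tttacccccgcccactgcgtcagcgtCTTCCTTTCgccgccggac
Rpl37, chr15:5116583-5116627, plus strand: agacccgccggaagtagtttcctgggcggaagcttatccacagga
Rps12, chr10:23787195-23787239, minus strand: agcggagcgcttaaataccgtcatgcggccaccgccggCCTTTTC
The run of Rps12 is 11 bases long, of which the window holds the first part. Both ends of the order hold starts with and without a marked run. The window of Rps25 does hold a pyrimidine run, unmarked because it begins more than 10 bases before the annotated start. Such a run, beginning within 10 bases of the annotated start on either side, was present in 43 of 78 RefSeq promoters of 66 members, or 55.1%, in 41.9% of the promoters of mitochondrial ribosomal protein genes and in 30.7% of all 32851 promoters. In the 250 bases before and 50 after the start, the core CCGGAAG of the ETS factors stood on either strand in 34.6% of the members' promoters, 33.8% of the mitochondrial ones and 8.86% of all. The core AAGATGG of the factor YY1 stood in 15.4%, 17.6% and 6.34%. These matches are letters in a window and say nothing of binding. The members' matched transcripts were short, with a median of 818 bases for 86 members against 2653 bases for 17702 genes, and their median GC content of 50.7% was close to the 50.6% of all genes.

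Ribosomal protein mRNAs were among the most abundant of the cartilage in every library. They made up 18.4% of summed FPKM in young sham cartilage and 16.1% after injury, and 12.1% in adult sham cartilage and 11.7% after injury, so that both young libraries lay above both adult ones. Of the 100 genes of highest FPKM, members were 55 in the young sham library and 49 in the young injured one, and 36 and 34 in the adult ones. The small subunit held 8.05%, 6.93%, 5.35% and 5.002% of summed FPKM and the large subunit 10.3%, 9.22%, 6.73% and 6.68%, in the same order of libraries. Both subunits were thus highest in young sham and lowest in adult injured cartilage. In bulk cartilage, fewer cells of a type and less RNA per cell cannot be told apart.

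The median level of the 77 subunit genes was 1037 FPKM in young sham cartilage and 978 after injury, and 624 in adult sham cartilage and 654 after injury. After scaling it was 945, 882, 771 and 639. Adult sham was the lowest of the 4 libraries for 48 of 86 members unscaled and for 19 after scaling, and adult injured for 36 unscaled and 65 after scaling. Of the 15334 genes above 0 in all 4 libraries, adult sham was the lowest for 53.4% unscaled and 30.3% after scaling, and adult injured for 13.5% and 20.3%. The unscaled count for adult sham is thus close to the background. No member was lowest in young sham cartilage on either scale, against 17.3% of these genes unscaled and 24.8% after scaling. The 2 adult libraries thus changed places with the scaling, and the young libraries lay above them on both scales.

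**Figure D1:**
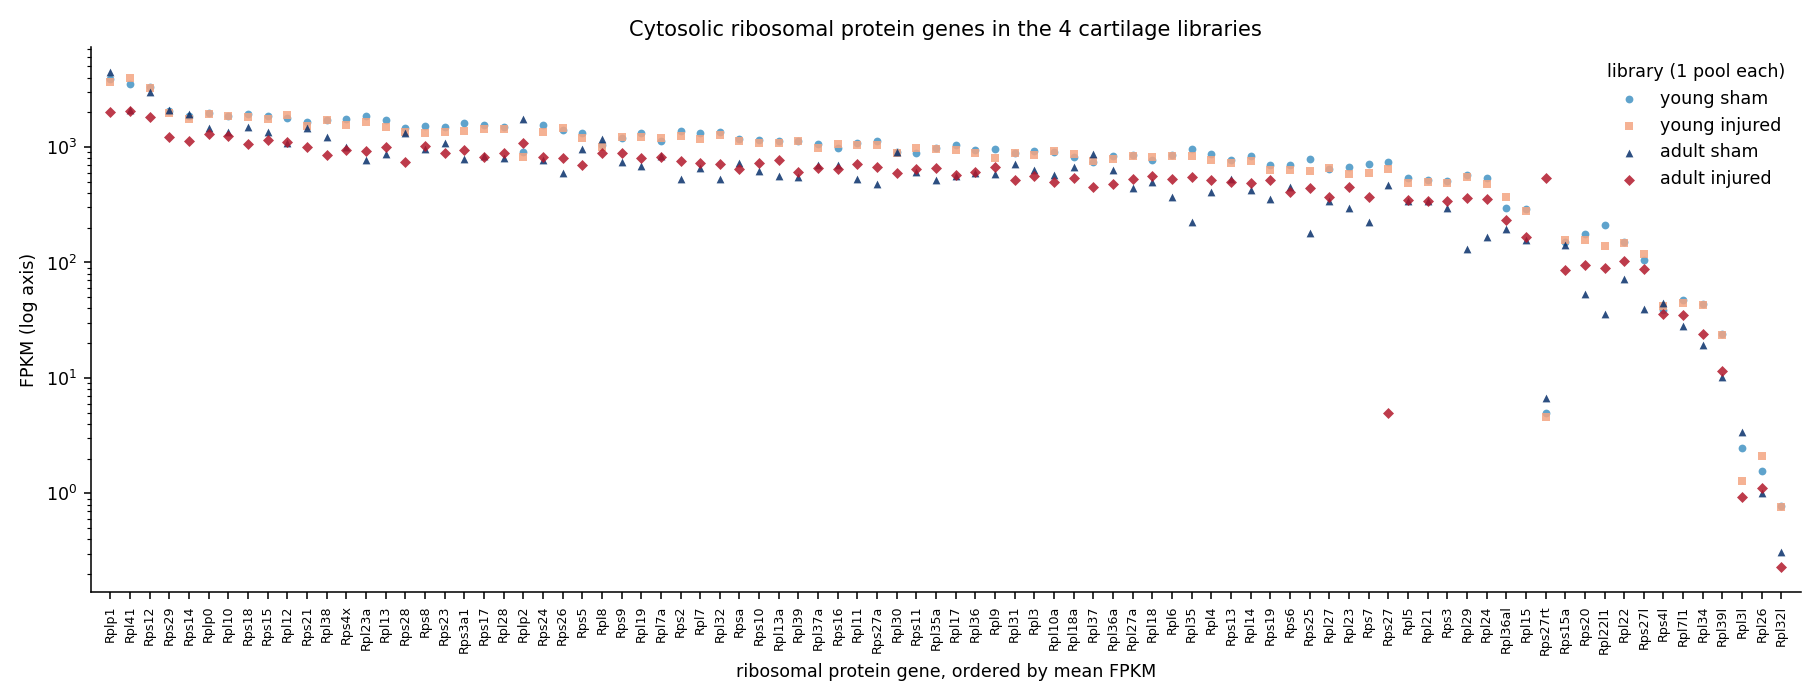
FPKM (vertical log axis) of the 86 ribosomal protein genes above 0, ordered by mean FPKM, with 1 point per library of each age and treatment. Most members lie above 100 FPKM, the 2 young libraries nearly coincide, adult sham scatters around the others, and Rps27 and Rps27rt change places in adult injured cartilage.

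The 5 members of highest mean level were Rplp1, Rpl41, Rps12, Rps29 and Rps14. Rplp1, a stalk protein that recruits elongation factors, was at 3870 FPKM in young sham cartilage and 3686 after injury, and 4455 in adult sham cartilage and 2031 after injury. Rpl41, which encodes the shortest ribosomal protein, was at 3548, 3980, 2087 and 2072 FPKM. Rps12 of the small subunit was at 3331, 3224, 3026 and 1819 FPKM. Values in such rows of 4 are those of young sham and injured cartilage and then of adult sham and injured cartilage. The order of these genes differed between libraries, since, as deposited, adult sham was the highest library for Rplp1, lay below both young libraries for Rps12 and was close to adult injured for Rpl41. Rps29 was at 2053, 1972, 2101 and 1227 FPKM and Rps14, a small subunit protein, at 1875, 1740, 1945 and 1120 FPKM. For both, adult injured was the only low library.

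Injury in young mice left the ribosomal protein genes close to their sham level. The median log2 ratio of the 86 members was −0.08 unscaled, with quartiles of −0.15 and −0.02, and −0.10 after scaling. No member was 2-fold higher, where 4.57% of all genes were (4.36% after scaling), and none was 2-fold lower, where 1.27% were (1.24% after scaling). The direction was shared, since 71 of 86 members, or 82.6%, lay below 0 after scaling against 51.3% of all genes. The small shift was downward while that of the 77 mitochondrial ribosomal protein genes was upward, with a median of 0.14 unscaled and 0.13 scaled and 64 of 77 above 0. Summed macrophage markers went from 181 to 1773 FPKM and erythroid markers from 9677 to 18444 FPKM between the same libraries, and their part in these ratios was not tested.

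The members at the ends of the young injury ratios, by the scaled ratio among those with a mean of at least 5 FPKM, were Rpl22l1 (−0.62), Rps25 (−0.37) and Rps7 (−0.26) below and Rpl36al (0.30), Rpl41 (0.15) and Rps27l (0.15) above. Of the members under that mean, Rpl3l lay at −0.60 and Rpl26 at 0.26. Rpl22l1, a paralog of Rpl22 that binds RNA and can take its place, went from 212 to 139.7 FPKM. Rpl36al, a widely expressed paralog of Rpl36a, went from 297 to 372 FPKM, while Rpl36a went from 828 to 780.1 FPKM. These extremes lie within 0.62 of 0 on the log2 scale, less than a 2-fold difference.

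Injury in adult mice gave a wide spread of ratios around a median whose sign depended on the scaling. The median was 0.09 unscaled, with quartiles of −0.23 and 0.32, and −0.24 after scaling, where that of all genes was 0.00. Unscaled, 7 of 86 members were 2-fold higher, against 6.9% of all genes, and 3 were 2-fold lower, against 1.46%. After scaling 2 were 2-fold higher, against 4.41%, and 10 were 2-fold lower, against 2.9%. The split of calls thus moved from mostly higher to mostly lower with the scaling, and only Rps27rt and Rpl29 were 2-fold higher and Rps27, Rplp1 and Rpl3l 2-fold lower on both scales. Over the same pair of libraries summed muscle markers went from 1491 to 424 FPKM, erythroid markers from 6956 to 3031 (8363 to 6942 with Hbb-b1 and Hbb-b2) and macrophage markers from 300.4 to 1549.7 FPKM, and their part in these ratios was not tested.

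Rpl29, a large subunit protein that is not essential in mice, was at 572 FPKM in young sham cartilage and 550.2 after injury, and 130.2 in adult sham cartilage and 361 after injury. Rps25, a small subunit protein used in initiation at viral internal entry sites, was at 788, 618, 179.7 and 438 FPKM, and Rpl35, a large subunit protein at the exit of the peptide tunnel, at 959, 838, 225 and 552 FPKM. In all 3 the adult sham library was the low one, and adult injured lay between adult sham and the young libraries. At the other end, Rpl37, a zinc-binding large subunit protein, was at 745, 750.2, 866 and 448 FPKM, with adult injured the low library. Its adult injury ratio was −0.95 unscaled and −1.29 scaled, beside −1.13 and −1.47 for Rplp1. The adult injury ratio of Rpl29 was 1.46 unscaled and 1.13 scaled.

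Between the sham libraries, the ribosomal protein genes were lower in adult than in young cartilage, by an amount that depended on the scaling. The median log2 ratio was −0.71 unscaled, with quartiles of −1.03 and −0.44, and −0.28 after scaling, with quartiles of −0.59 and −0.03. Unscaled, 76 of 86 members lay below 0, against 65.6% of all genes, 24 members were 2-fold lower, against 10.6% of all genes, and none was 2-fold higher, against 2.66%. After scaling 7 were 2-fold lower, against 5.13%, and 1 was 2-fold higher, against 5.86%. The 7 were Rpl22l1 (−2.11), Rps25 (−1.69), Rpl29 (−1.69), Rpl35 (−1.65), Rpl24 (−1.27), Rps20 (−1.26) and Rps7 (−1.21), of which Rpl35, Rpl24 and Rps20 were picked out after their values were seen. They belong to both subunits, and the sequence matched to Rps20 is a long transcript that may not be the measured form. The member that was 2-fold higher was Rplp2 (1.40), followed by Rps27rt (0.72), Rpl3l (0.68, at a mean under 5 FPKM) and Rpl37 (0.66). Between the same libraries, young and then adult, summed osteoblast markers were at 701 and 4866 FPKM, muscle markers at 835 and 1491, proliferation markers at 71.5 and 11.2 and B cell markers at 51.9 and 10.7 FPKM. Erythroid markers went from 9677 to 6956 FPKM, and from 24564 to 8363 with Hbb-b1 and Hbb-b2. Of the 8 chondrocyte markers 5 were 2-fold lower in adult sham cartilage on both scales, among them Col2a1 at 9349 and 3173 and Matn3 at 392 and 2.30 FPKM, and 1 was 2-fold higher, Comp at 1324 and 7203 FPKM. These 3 were picked out after their values were seen, and the part of any of these lists in the ratios was not tested.

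Rplp2, which pairs with Rplp1 in the stalk, was at 897 FPKM in young sham cartilage and 818 after injury, and 1749.9 in adult sham cartilage and 1081 after injury. It was the sole subunit gene that was higher in adult injured than in young sham cartilage, with a ratio of 0.27 unscaled and 0.37 scaled. Within a library, which no scaling can change, the ratio of Rplp1 to Rplp2 was 4.32 in young sham cartilage and 4.51 after injury, and 2.55 in adult sham cartilage and 1.88 after injury. The ratio of Rplp0, the protein that anchors both, to Rplp2 was 2.22, 2.36, 0.838 and 1.19. Young and adult libraries did not overlap in either ratio. This was not particular to the stalk genes, since the ratio of Rpl32 to Rpl13a did not overlap either, at 1.19, 1.18, 0.949 and 0.910. How often other pairs of genes do so was not counted. Of the 31-base words of the Rplp2 transcript, 36.2% also occur in that of Wdr89, so that its value may hold reads of more than 1 gene.

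Between the injured libraries, which leave out adult sham, the difference with age was nearly uniform. Young injured exceeded adult injured cartilage in 84 of 86 members on both scales, or 97.7% after scaling, against 48.7% of all genes. The exceptions were Rplp2 and Rps27rt. The median was 0.61 unscaled, with quartiles of 0.54 and 0.74, and 0.50 after scaling, with quartiles of 0.43 and 0.62. Few members passed 2-fold, since the shift was small and even: 2 were higher unscaled, against 3.09% of all genes, and 1 after scaling, against 2.53%, and 1 was lower on each scale, against 1.8% unscaled and 2.19% scaled. Apart from Rps27 and Rps27rt, the member past 2-fold was Rpl38, a large subunit protein known for its role in the translation of Hox mRNAs, at 1719.6 FPKM in young injured and 853 in adult injured cartilage, with a ratio of 1.01 unscaled and 0.89 scaled. Rpl8, a large subunit protein next to the catalytic centre, had a ratio of 0.18 unscaled and 0.06 scaled. Summed erythroid markers were at 18444 FPKM in young and 3031 in adult injured cartilage, osteoblast markers at 1366 and 5503 FPKM, chondrocyte markers at 12735 and 9755 FPKM and proliferation markers at 162 and 42.7 FPKM, and their part in this difference was not tested.

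How evenly the members moved differed between pairs of libraries. Over the 76 members with a mean of at least 100 FPKM other than Rps27 and Rps27rt, the interquartile range of the unscaled log2 ratio was 0.12 for young injured against young sham, 0.18 for young injured against adult injured and 0.24 for adult injured against young sham. In the 3 pairs with adult sham it was 0.55 against young sham, 0.52 against young injured and 0.51 against adult injured. The 560 other genes at or above that mean had interquartile ranges of 0.51, 0.87 and 1.04 in the first 3 pairs and 1.31, 1.30 and 0.80 in the last 3. The ribosomal protein genes were thus tighter than the other abundant genes in each of the 6 pairs. The 77 mitochondrial ribosomal protein genes, with no limit on their level, had interquartile ranges of 0.18, 0.26 and 0.27 in the first 3 pairs and 0.61, 0.49 and 0.50 in the last 3, so that the wider spread in the pairs with adult sham was not particular to the cytosolic genes. Adult sham is the sole library whose label covers days 3 to 14, it is also the library of lowest scaling factor and highest muscle marker sum, and these cannot be told apart.

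**Figure D2:**
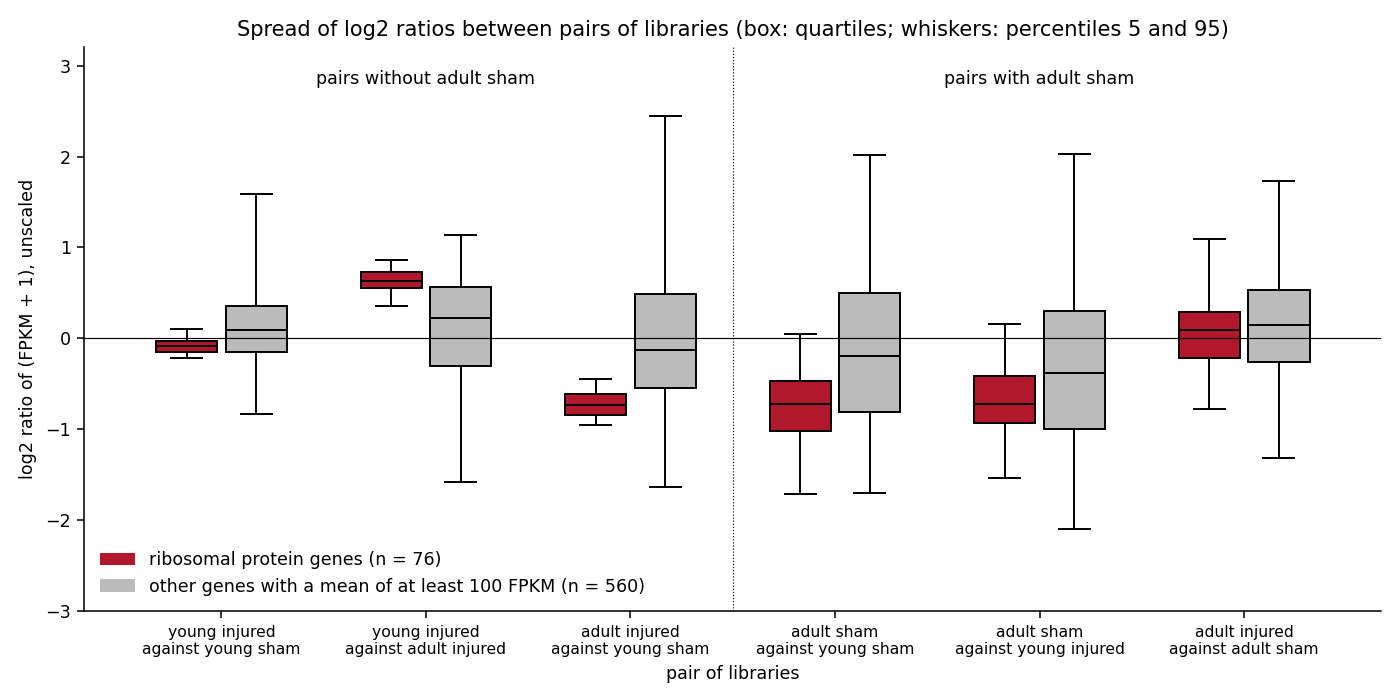
Boxes of unscaled log2 ratios (vertical axis) in the 6 pairs of libraries for 76 ribosomal protein genes and 560 other genes, each with a mean no lower than 100 FPKM, with quartiles as boxes and percentiles 5 and 95 as whiskers. The ribosomal protein boxes are narrow in the 3 pairs without adult sham, with interquartile ranges of 0.12 to 0.24, and wider in the 3 pairs with it, at 0.51 to 0.55.

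The departures in adult sham cartilage were found in both subunits. The small subunit members had a median of −0.66 and the large subunit members of −0.75 against young sham, unscaled, with interquartile ranges of 0.59 and 0.56. Across the 76 members, the ratio of adult to young sham cartilage had a Spearman correlation of 0.31 with the mean level in the 2 injured libraries, 0.18 with the GC content and −0.21 with the length of the matched transcript. The corresponding values for 549 other genes at or above that mean that have a matched transcript were 0.01, 0.24 and −0.04. These are descriptions across genes, which share the same libraries and are not independent, and the lengths of Rps20 and Rps15a come from long transcripts that may not be the measured form. Abundant members lay on both sides of 0, with Rplp1 at 0.20 and Rpl41 at −0.77 for adult against young sham, unscaled.

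**Figure D3:**
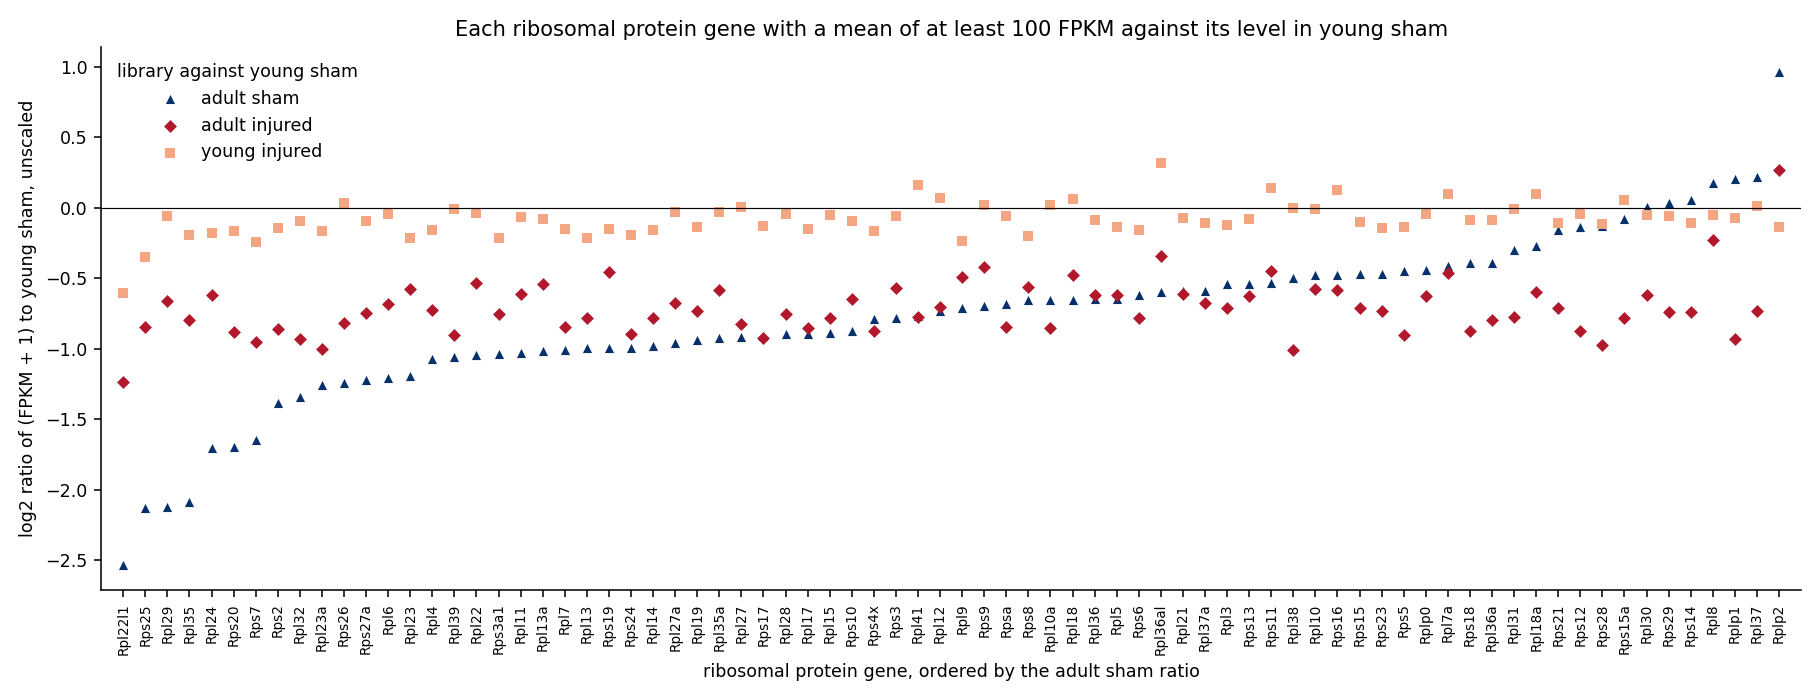
Unscaled log2 ratio of FPKM + 1 against young sham (vertical axis) for 76 ribosomal protein genes whose mean is 100 FPKM or more, ordered by the adult sham ratio, with points for adult sham, adult injured and young injured. Young injured points lie near 0 and most adult injured points between −1.0 and −0.2, while adult sham runs from −2.54 for Rpl22l1 to 0.96 for Rplp2.

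The ratios of both injuries share no library, and across the same 76 members they had a Pearson correlation of −0.36 and a Spearman correlation of −0.32, unscaled. Across the 549 other abundant genes the values were 0.63 and 0.37. Genes of a library share its depth and composition, and these values carry no test. The sign of the ratio was opposite in young and adult mice for 48 of 86 members unscaled, against 38.6% of all genes, and for 31 after scaling, against 34.7%.

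Several ribosomal protein genes serve as reference genes in quantitative PCR, and they did not keep a fixed proportion to each other. Rplp0 was at 1988 FPKM in young sham cartilage and 1934 after injury, and 1466 in adult sham cartilage and 1290.5 after injury. Rpl13a was at 1131, 1073, 558 and 776 FPKM, so that the ratio of Rplp0 to Rpl13a was 1.76, 1.80, 2.63 and 1.66. It was alike in 3 libraries and higher in adult sham cartilage. Rps18 was at 1941, 1833, 1479.6 and 1059 FPKM, and its ratio to Rpl13a was 1.72, 1.71, 2.65 and 1.36. Rpl19 and Rpl32 stayed closer to Rpl13a, with ratios of 1.17, 1.13, 1.24 and 1.03 for Rpl19 and of 1.19, 1.18, 0.949 and 0.910 for Rpl32. The highest ratio exceeded the lowest by 1.58 times for Rplp0, 1.94 for Rps18, 1.20 for Rpl19 and 1.31 for Rpl32, each against Rpl13a. Gapdh, a reference gene outside the ribosome, was at 608, 803, 694 and 853 FPKM and Actb at 602, 1169, 981 and 938 FPKM, and neither followed the order of the ribosomal protein genes. The 10 genes of the housekeeping list had a median of 0.11 unscaled and 0.00 scaled for young against adult injured cartilage.

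Rps27, a small subunit protein with a zinc finger, was at 742 FPKM in young sham cartilage and 642.5 after injury, and at 469.5 in adult sham cartilage but 4.93 after injury. Its copy Rps27rt was at 5.02, 4.59, 6.65 and 541 FPKM. The copies changed places in adult injured cartilage: Rps27rt held 0.672%, 0.709% and 1.40% of their sum in the first 3 libraries and 99.1% in the last. Their sum was 747, 647, 476 and 546 FPKM. Its unscaled log2 ratios were −0.21 for the injury in young mice, 0.20 in adult mice, −0.65 between the sham libraries and 0.24 between the injured ones. After scaling they were −0.22, −0.14, −0.21 and 0.13, so that the sign for the injury in adult mice depended on the scaling. Of the 31-base words of the Rps27 transcript, 98.7% also occur in Rps27rt. Taken singly, the genes had adult injury ratios of −6.31 and 6.15, the most extreme values of all members, and the sum had neither.

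Other members also have near-identical copies, and copies outside the rule held most of the signal for Rpl26 and Rpl34. The copies Gm15772 and Rpl34-ps1 were looked up after the values of Rpl26 and Rpl34 had been seen. Rpl26, a large subunit protein that also regulates translation of p53, was at only 1.55, 2.11, 0.998 and 1.11 FPKM. Gm15772, annotated as a transcribed pseudogene on chromosome 5 at 3236390 to 3236928, was at 2121, 1905, 1750.5 and 1168 FPKM, and 69.8% of the words of Rpl26 occur in it. Rpl34 was at 44.1, 42.5, 19.2 and 24.0 FPKM, while Rpl34-ps1, on chromosome 6 at 71124589 to 71125001, was at 1113, 1001, 626 and 634 FPKM. The coding sequence of 354 bases differed at 2 bases between Rpl34 and Rpl34-ps1. The sum of Rpl34 and its copy was 1157, 1044, 646 and 658 FPKM, within the range of the other members. With 31-base words as the measure, 50 of 86 members with a matched transcript had at least 50% of their words in other annotated genes, mostly pseudogenes, counted over all such genes, and 7 shared at least that much with a single gene of the table. Values of single members are uncertain to that extent, since it was not known how reads matching several places were counted.

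**Figure D4:**
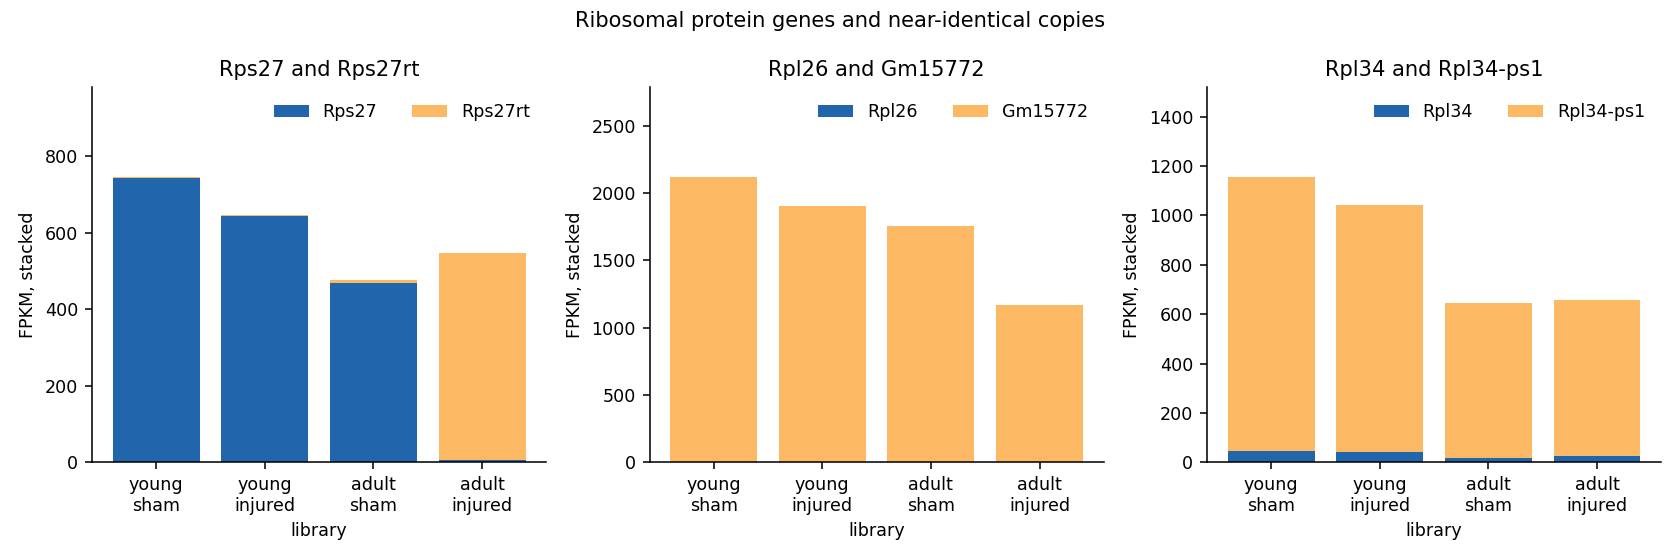
Stacked bars of FPKM in the 4 libraries for Rps27 and Rps27rt, Rpl26 and Gm15772, and Rpl34 and Rpl34-ps1. The Rps27 bar passes almost wholly to Rps27rt in adult injured cartilage at a sum of 546 FPKM, whereas Gm15772 and Rpl34-ps1 hold nearly all of their pair's sum in each library.

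The paralogs with a transcript of their own were less abundant than their parent genes, Rps27 being summed with Rps27rt, with the exception of Rpl22l1 in young sham cartilage. Rpl22l1 was at 212 FPKM in young sham cartilage and 139.7 after injury, and 35.8 in adult sham cartilage and 89.8 after injury. Rpl22, which is lost in some leukaemias, was at 150.2, 146, 72.4 and 103 FPKM. The ratio of Rpl22l1 to Rpl22 was thus 1.41, 0.955, 0.494 and 0.869, above 1 in young sham alone and lowest in adult sham cartilage. Of the words of Rpl22l1, 61.7% also occur in Gm15421, which was at 0.71 to 1.66 FPKM.

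Rps27l, a p53-induced paralog of Rps27, was at 105 FPKM in young sham cartilage and 118 after injury, and 39.7 in adult sham cartilage and 87.5 after injury, or 0.140, 0.182, 0.0834 and 0.160 times the sum of Rps27 and Rps27rt. Rpl36al was at 0.359, 0.476, 0.311 and 0.492 times the level of Rpl36a, higher in both injured libraries than in their sham libraries. Rpl7l1, a paralog of Rpl7 that acts in ribosome assembly, was at 47.5, 44.9, 28.0 and 35.3 FPKM, or 0.0362 to 0.0484 times Rpl7. Rpl39l, a paralog of Rpl39 that is best known from testis, was at 24.1, 23.4, 10.3 and 11.5 FPKM, or 0.0188 to 0.0211 times Rpl39, so that the pair kept nearly the same proportion. Rps4l was at 39.1, 42.0, 44.9 and 36.0 FPKM, or 0.0225 to 0.0446 times Rps4x.

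Rpl3l, which replaces Rpl3 in ribosomes of skeletal muscle and heart, was at 2.46 FPKM in young sham cartilage and 1.27 after injury, and 3.40 in adult sham cartilage and 0.92 after injury. The sum of 8 skeletal muscle markers was 835, 651, 1491 and 424 FPKM in the same libraries, the same order as Rpl3l, while Rpl3 was at 924, 848, 634 and 564 FPKM. Whether the Rpl3l signal came from muscle was not tested. Rpl10l, an intronless copy of Rpl10 used in male germ cells, was listed at 0 in all 4 libraries, and Rpl32l, chosen for mention after its values were seen, was at 0.23 to 0.78 FPKM.

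The other genes of ribosome production were given as lists for comparison. The 77 mitochondrial ribosomal protein genes had medians of 0.49 for adult injured against adult sham, −0.54 for adult against young sham and 0.25 for young against adult injured cartilage, unscaled, and of 0.17, −0.12 and 0.14 after scaling. In the last comparison, which leaves out adult sham, their median lay well below the 0.61 and 0.50 of the cytosolic genes. The 17 other TOP genes of translation were nearer to the cytosolic ribosomal protein genes in that comparison, at 0.54 unscaled and 0.43 scaled with 15 and 14 above 0. Eef1a1, the elongation factor that brings aminoacyl-tRNA, was at 5121, 5658, 3563 and 3524 FPKM, and Tpt1, a growth-associated protein, at 2996.5, 2639.6, 1816 and 1811 FPKM. Both were higher in the young than in the adult libraries. The 7 host genes of small nucleolar RNAs, which carry TOP starts too, had medians of 0.57 and 0.46, with all 7 above 0 on both scales.

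Ribosome assembly and its control showed smaller medians between the injured libraries. The 27 ribosome biogenesis genes were at 0.36 unscaled and 0.26 scaled, with 27 and 22 above 0. Npm1, a nucleolar chaperone that is also on the TOP list, was at 440.1, 410.3, 109.5 and 189 FPKM. The 10 genes of RNA polymerase I, which makes ribosomal RNA, were at 0.15 and 0.04, and the 14 regulators of growth and of TOP mRNAs at 0.14 and 0.04. No gene of these last 2 lists was 2-fold apart between the injured libraries on either scale. Of all genes, 3.09% were 2-fold higher and 1.8% lower unscaled, and 2.53% and 2.19% after scaling. In lists this short, a count of 0 is close to those shares. Of the regulators, Myc, a driver of ribosome production, was at 5.57, 6.25, 1.82 and 6.71 FPKM. Its adult injury ratio of 1.45 unscaled and 1.22 scaled was the highest of the 14 and lay above the medians of the ribosomal protein genes. Mtor (−0.10), Rptor (−0.28) and Rps6kb2 (−0.06) lay below 0 unscaled in that comparison, and the other regulators above it. The regulators named here were picked out after their values were seen. Fau, a ribosomal component outside the rule, was at 689, 788, 511 and 629.7 FPKM.

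**Figure D5:**
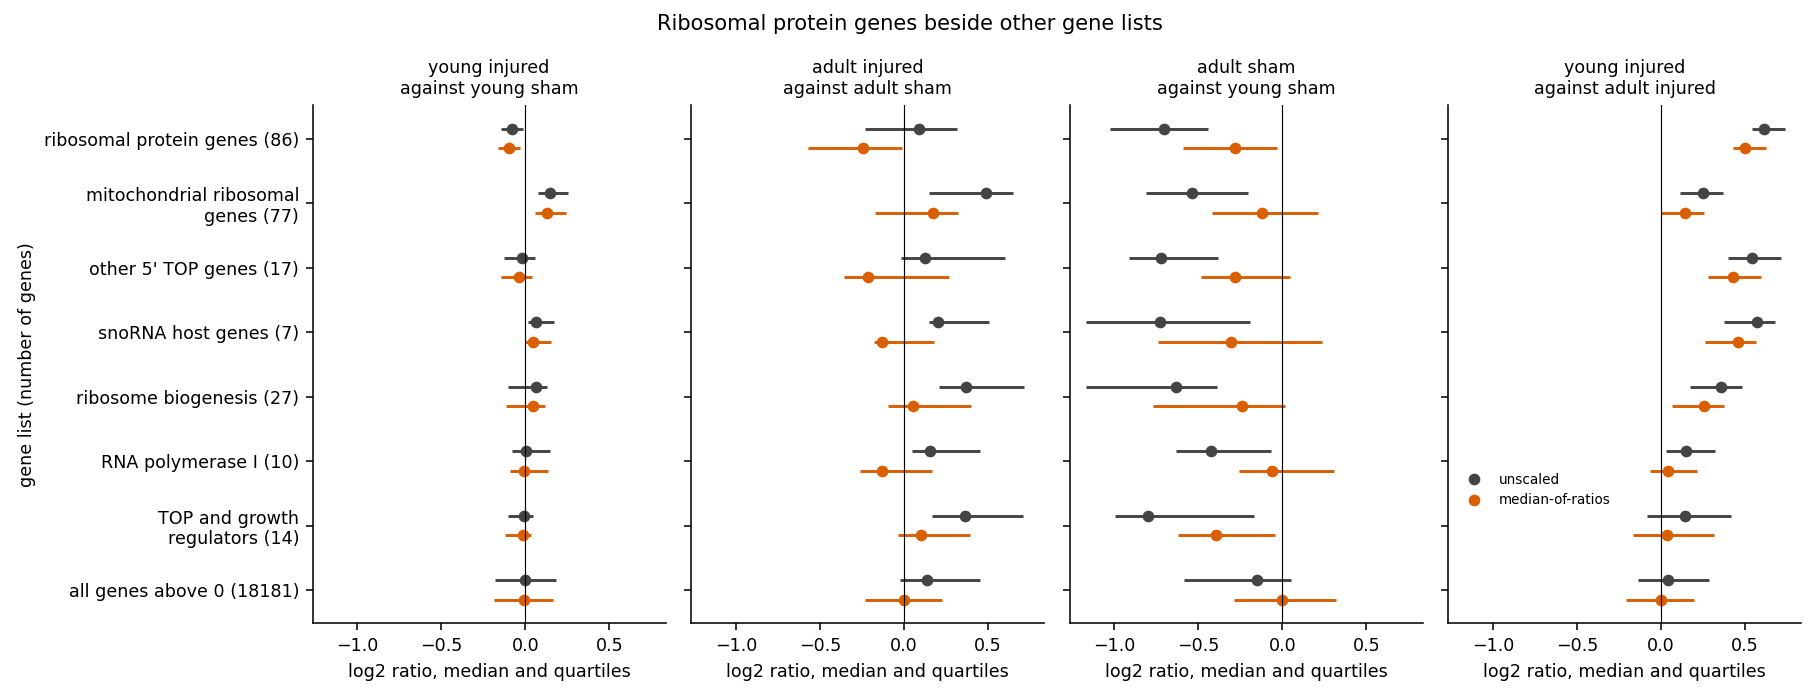
Medians (points) and quartiles (lines) of the log2 ratio of FPKM + 1 (horizontal axis) for the ribosomal protein genes and 7 other lists in 4 comparisons, unscaled and after median-of-ratios scaling. In young injured against adult injured cartilage the ribosomal protein genes have the highest medians of the lists shown, at 0.61 and 0.50, and in adult injured against adult sham their median changes sign with the scaling.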

How the data were processed

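The authors deposited 1 table of FPKM values per gene for 4 libraries, prepared from polyadenylated RNA with a strand-specific kit, sequenced in pairs and placed on mm10. The submitters' processing notes name HISAT2 2.1.0, StringTie 1.3.4d, STAR, HISAT and SAMtools without roles. How reads matching several genes were counted is not given in the sources used here, and FPKM values hold no depth, so that precision is unknown. No column was left unused.

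Columns were mapped to libraries by their labels, and log2 ratios of FPKM + 1 were computed in Python 3.11.15 with numpy 2.4.6 and pandas 2.3.3. Scaling by median of ratios was tested on simulated data. With 1 library per group no test was made; a 2-fold difference is a size and not a call of significance. Members, lists and named genes were chosen with earlier results of these data known. Named genes were the paralogs and their parents, the 5 most abundant members, 5 reference genes, and in each comparison the 3 highest and 3 lowest scaled ratios among members with a mean of at least 5 FPKM, with at most 4 genes per companion list. Genes were matched to GENCODE M21 transcripts through RefSeq accessions, which placed 86 of 87 members. Alternatives were other scalings, pseudocounts of 0.1 and 5, a filter of 1 FPKM, thresholds of 1.5-fold and 3-fold, summed copies, no paralogs, and other denominators of the share.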

Additional observations from a re-analysis of the deposited data

Results flagged for a closer look

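For 11 of the 83 members whose mean reached 5 FPKM, the injury ratio lay on opposite sides of 0 in young and adult mice on both scales, past 0.1 in each. That is 13.3% of these members against 13.8% of all 8055 genes at or above that mean, so that the count is no higher than the background. The difference between ages was not tested, since each group is 1 library. The adult minus young difference of the unscaled log2 ratios was 6.25 for Rps27rt (−0.11 in young and 6.15 in adult mice), 1.90 for Rpl22l1 (−0.60 and 1.30), 1.63 for Rps25 (−0.35 and 1.28) and 1.48 for Rpl35 (−0.19 and 1.29). It was 1.27 for Rpl24, 0.98 for Rps20, 0.94 for Rps7, 0.84 for Rpl23, 0.69 for Rps19 and 0.68 for Rps2, each lower after injury in young and higher in adult mice. Rps16 went the other way, at −0.24 (0.13 in young and −0.11 in adult mice). Apart from Rps27rt and Rps16, the adult sham library was the lowest of the 4 for each of these genes, as with Rpl22l1, Rps25 and Rps7 at 35.8, 179.7 and 226 FPKM, and adult injured cartilage stayed below young sham cartilage. For Rps27rt the summed level with Rps27 had ratios of −0.21 and 0.20 unscaled. After scaling they were −0.22 and −0.14, so that the sum was of opposite sign on the unscaled values alone. All but Rps27rt, Rpl22l1, Rps25 and Rps7 are outside the rule for named genes and were picked out after their values were seen.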

How the results depend on the processing

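Of 96 values under the alternatives, 69 stayed within the tolerance (0.1 on the log2 scale, 1.5 times for counts, 1 percentage point for shares), 26 moved and 1 reversed; the causes were not tested beyond what each alternative changes by construction. Median-of-ratios scaling reversed the median for adult injured against adult sham (−0.24) and moved those for adult against young sham (−0.28, with 8 members past 2-fold) and young against adult injured (0.50). TPM scaling moved the medians of young injury (−0.20) and of young against adult injured (0.45). Quantile normalization moved those of adult against young sham (−0.50, with 10 past 2-fold) and young against adult injured (0.41). The share of all genes past 2-fold after quantile normalization was not computed. The number of members past 2-fold between the injured libraries became 5 with a pseudocount of 0.1 and 1 with Rps27 and Rps27rt or all 3 pairs of copies summed, the last chosen after seeing the data. For adult injury it became 6 without paralogs. The share of all genes was not computed under these settings, so that no background stands beside these counts. At 1.5-fold the members past the threshold were 2 for young injury (both lower), against 14.3% of all genes, 21 for adult injury (10 higher and 11 lower), against 21.9%, 56 for the sham pair (55 lower), against 31.6%, and 51 for the injured pair (50 higher), against 15.3%. At 3-fold they were 2 for adult injury, against 2.89%, and 7 for the sham pair, against 3.78%. Shares of summed FPKM, in the young libraries (sham, injured) and then the adult ones, were 21.3%, 19.3%, 15.5% and 13.2% without the 10 most abundant genes, and 7.79%, 6.75%, 4.77% and 5.13% for members of at least the median length. With Gm15772 and Rpl34-ps1 added, which was chosen after seeing the data, the shares stayed within the tolerance. Only the share of longer members placed adult injured above adult sham. No paired analysis was possible because each group holds 1 library and no test was made. Depth is unknown, so that no limit from counting can be given.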
